A study of Mus musculus with 13 samples.

Results

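Tetrahydrobiopterin (BH4) synthesis and recycling is represented here by 7 mouse genes, Gch1, Gchfr, Pts, Spr, Qdpr, Pcbd1 and Pcbd2, out of 55642 genes in the deposited count table. The genes were chosen by symbol, and the pathway was chosen because the Qdpr transcript was lower in the YBX3 KD cells of these same libraries. The Qdpr values in YBX3 KD against control KD are therefore given as a description without a test. Of the 7 genes, 6 had counts, and all 6 passed the filter on low counts among the 16848 genes tested. Pcbd1 had no count in any library.

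The cells were C2C12, an established line of mouse myoblasts that grows as single cells and fuses into myotubes after a change of serum. They were transfected with nontargeting siRNAs (control KD) or with siRNAs to Ybx3, an RNA-binding protein of the Y-box family (YBX3 KD), and all were harvested 48 h after transfection. Proliferating cells (0 day) stayed in growth medium, and differentiating cells (1 day) had spent their last 24 h in medium with 10% horse serum. The labels letter the replicates. Letters A to D each gave 1 library of either siRNA at 0 day, so that 8 libraries are of proliferating cells. The 5 of differentiating cells are control KD of letters C and D and YBX3 KD of letters B, C and D. Library totals ran from 33451547 to 71811371 counts. Nothing in the labels says that the letters are separate cultures, so the p-values measure the spread between these libraries, which may be technical. Ybx3 itself stood at 265 to 347 CPM (counts per 1000000 counts of a library, scaled by TMM factors) in the 6 control KD libraries and at 28.7 to 71.5 CPM in the 7 YBX3 KD libraries. All 5 myoblast markers of the list were tested. Chrna1, Cdh15, Myf5 and Des averaged 263, 136, 49.7 and 27.4 CPM in control KD, and Myod1, a transcription factor that defines the lineage, only 1.07 CPM. In YBX3 KD Chrna1, a subunit of the muscle acetylcholine receptor, was higher (log2 fold change 0.37, SE 0.09, edgeR adjusted p = 0.0449), and Myod1 had 2.34 CPM (log2 fold change 1.11, SE 0.29, adjusted p = 0.0726). Of 8 markers of other cell types only Cdh5, of endothelium, passed the filter on low counts, with means of 1.03 and 1.12 CPM in control KD and YBX3 KD (adjusted p = 0.834). Pecam1, also of endothelium, and Ptprc, of leukocytes, had at most 5 and 2 counts in a library. Adipoq, of fat cells, had at most 2, and Adgre1, Alb, Epcam and Snap25, of macrophages, hepatocytes, epithelium and neurons, had none. Myog, the transcription factor that opens terminal differentiation, had a median of 0.268 CPM under control siRNA and 0.250 CPM under YBX3 siRNA, and a single YBX3 KD library at 3.46 CPM raised the mean of its group to 0.785 CPM against 0.338 CPM. Myog is 1 of 9 listed markers of differentiating muscle, of which 7 were tested. Over both days their log2 fold changes in YBX3 KD ran from -0.28 to 1.26 (median 0.65), and at 1 day from -0.60 to 2.81 (median 1.69). The 5 proliferation markers ran from -0.52 to -0.38 over both days. No gene of either list had an edgeR adjusted p under 0.05 in these comparisons. In bulk RNA of this kind, fewer cells with a transcript and less transcript per cell cannot be told apart.

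BH4 is the cofactor with which the aromatic amino acid hydroxylases and the nitric oxide synthases activate oxygen. It is built from GTP in a short chain of steps. GTP cyclohydrolase (Gch1) opens the chain and usually sets its pace, 6-pyruvoyltetrahydropterin synthase (Pts) forms the pterin intermediate, and sepiapterin reductase (Spr) completes the cofactor. The GTP cyclohydrolase feedback regulator (Gchfr) binds the first enzyme and lets BH4 inhibit it and phenylalanine stimulate it. When a hydroxylase has used BH4, the pterin carbinolamine dehydratases (Pcbd1 and Pcbd2) remove water from the product and dihydropteridine reductase (Qdpr) returns it to BH4. The fully active pathway is best known in liver, in monoaminergic neurons and in endothelium.

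The siRNA strands are shown first because the seeds of YBX3 siRNA 08 and of nontargeting siRNA 3 each have a complementary site in Qdpr. The study lists 4 nontargeting siRNAs and 4 siRNAs to mouse Ybx3, and does not say which of them were in the sequenced cells. In other experiments it used a pool of YBX3 siRNAs and also single ones. Each of siRNAs 05 to 08 alone lowered the proteins YBX3 and SLC1A5, an amino acid transporter, about alike. Glutamine was measured with the pool and with siRNA 08 alone. The antisense strands to Ybx3 are given 5′ to 3′ with the seed (bases 2 to 8) in capitals.
YBX3 siRNA 05: uAUAGUUGuagggacgucg
YBX3 siRNA 06: aUAGUAGCcgcgucuguac
YBX3 siRNA 07: uCCAUAUCcauuucugacg
YBX3 siRNA 08: aUACUUGCguggguuguuu
All 4 antisense strands match the canonical Ybx3 transcript along their whole length, upstream of its 3′ UTR. The sense strand listed for siRNA 07 is not the complement of its antisense strand and has no match there. The Qdpr gene (ENSMUSG00000015806) lies on the minus strand at chr5:45590463-45607587 of GRCm39, and its canonical transcript ends in a 3′ UTR of 520 bases. At base 400 of that UTR, at chr5:45591509-45591515 on the minus strand, stands the complement of the siRNA 08 seed, shown here in capitals within the 19 bases that face the strand, written 5′ to 3′ in the sense of the transcript and counted from the first base of the UTR.
Qdpr, site of the siRNA 08 seed: tggtgatgtaaGCAAGTAa
Of the 19 positions, 9 could pair, the 7 of the seed and 2 others. All 17 coding Qdpr transcripts with an annotated 3′ UTR of sufficient length hold this site. The same UTR holds, at base 75 (chr5:45591834-45591840, minus strand), the complement of the seed of nontargeting siRNA 3, whose antisense strand is printed above the site. There 12 of the 19 positions could pair, 5 of them outside the seed.
nontargeting siRNA 3: uCAGAAAAcauguaaacca
Qdpr, site of the nontargeting 3 seed: ctggccccatgTTTTCTGt
None of the other 6 members holds the siRNA 08 site in its canonical 3′ UTR. Pcbd2 holds 1 match to the seed of YBX3 siRNA 07, Gch1 and Pcbd2 each hold 1 to nontargeting siRNA 4, and Pcbd1 holds 1 to nontargeting siRNA 3.

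Qdpr transcript was lower after YBX3 siRNA on both days and in every library. Under control siRNA, letters A, B, C and D had 30.7, 36.3, 33.2 and 30.4 CPM at 0 day, and letters C and D had 33.2 and 31.3 CPM at 1 day. Under YBX3 siRNA, letters A, B, C and D had 16.7, 18.1, 14.6 and 16.6 CPM at 0 day, and letters B, C and D had 18.7, 17.4 and 16.1 CPM at 1 day. The highest YBX3 KD library was well under the lowest control KD library, and neither siRNA group showed a library that stood away from the rest. These values rest on 986 to 2056 counts in control KD and 629 to 1301 in YBX3 KD. Mean Qdpr was 32.5 ± 2.20 CPM (SD, n = 6) under control siRNA. Under YBX3 siRNA it was 16.9 ± 1.36 CPM (SD, n = 7), or 51.8% of that level. The fitted log2 fold change was -0.95 (SE 0.07, 95% interval -1.10 to -0.80). It was -0.99 (SE 0.09) at 0 day and -0.89 (SE 0.12) at 1 day. Against the control KD library of the same letter and day, the YBX3 KD library held 43.8% to 54.5% of the Qdpr level in 6 of 6 pairs. The distance between the 0 day and 1 day effects was 0.09 (SE 0.15, 95% interval -0.23 to 0.42) on the log2 scale and did not pass the test (edgeR, Benjamini-Hochberg adjusted p = 1.00).

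The other members showed no change of this kind over both days. At the study's thresholds of an absolute fold change over 1.3 and an adjusted p-value under 0.001, 0.113% of all genes tested were called over both days, and at an adjusted p-value under 0.05 it was 2.34%. None of the 5 other members with counts passed either rule in edgeR, none had an unadjusted p under 0.05, and DESeq2 also put none of the 5 under an adjusted 0.05. With the replicate letter as a block, 1647 genes in place of 394 were under an adjusted 0.05 in edgeR, and none of the 5 was among them. Their YBX3 KD and control KD libraries overlapped in every case, where 2.03% of all genes had groups that did not overlap. The Qdpr count stands outside these comparisons, since its fall was what chose it.

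**Figure D1:**
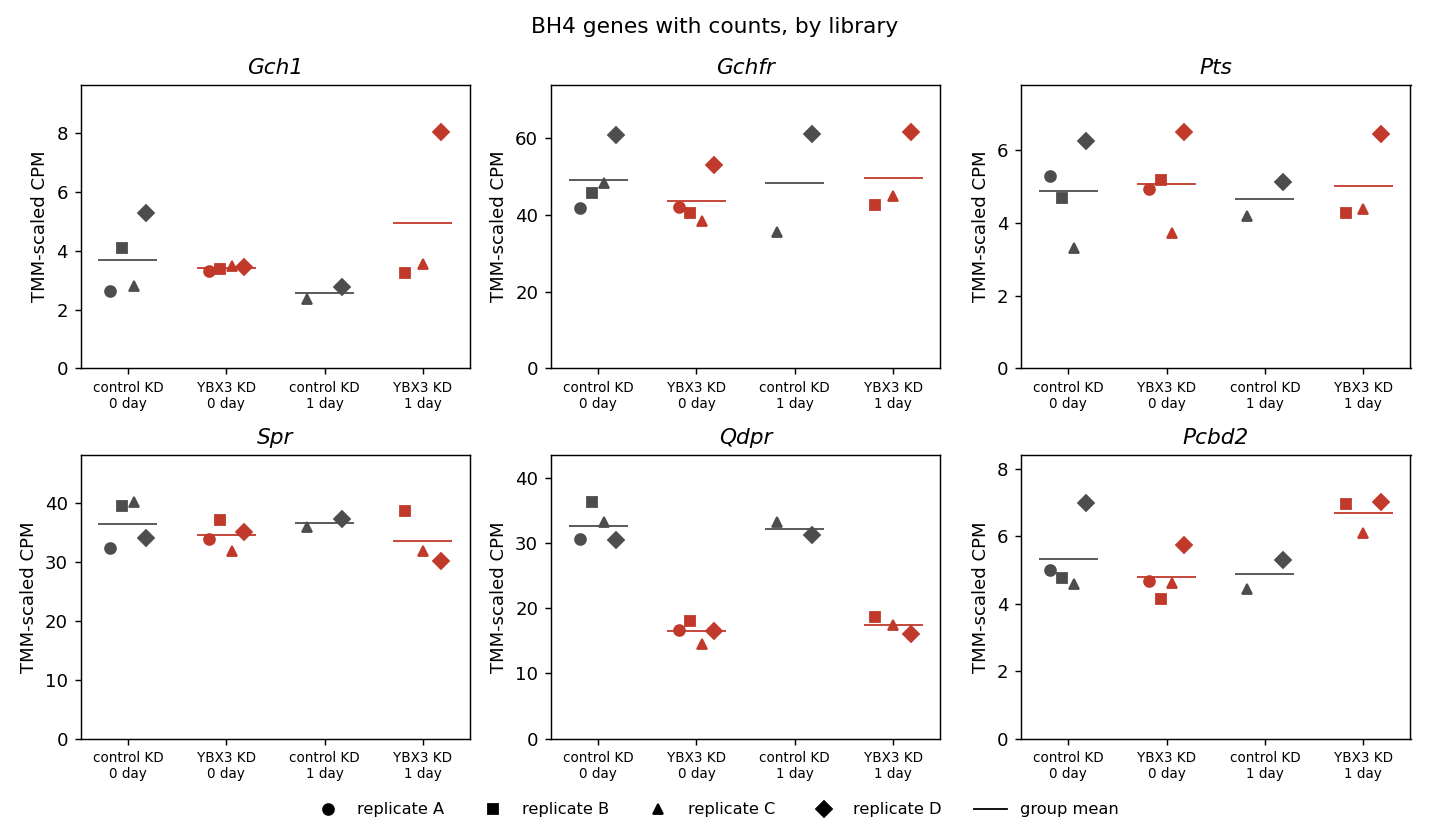
TMM-scaled CPM (vertical axes, starting at 0) of the 6 BH4 genes with counts in each of the 13 libraries, grouped along the horizontal axis by siRNA and day, with marker shapes for the replicate letters and a line at each group mean. Qdpr separates by siRNA on both days, 30.4 to 36.3 CPM against 14.6 to 18.7 CPM, whereas Gchfr separates by letter D and 1 library, YBX3 KD replicate D at 1 day, carries the high Gch1 value of 8.04 CPM.

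Gch1 (ENSMUSG00000037580, chr14:47391346-47426915, minus strand), the gene of the first enzyme, was low and uneven. Control KD libraries had 2.62, 4.10, 2.81 and 5.28 CPM at 0 day and 2.35 and 2.77 CPM at 1 day. YBX3 KD libraries had 3.31, 3.38, 3.48 and 3.45 CPM at 0 day and 3.25, 3.54 and 8.04 CPM at 1 day. The last of these, replicate D, held 314 counts and stood far above the other 2 of its group. Over both days the log2 fold change was 0.27 (SE 0.28, edgeR, Benjamini-Hochberg adjusted p = 0.688). At 0 day it was -0.12 (SE 0.30, adjusted p = 0.957), and at 1 day it was 0.95 (SE 0.40, 95% interval 0.08 to 1.82), with an unadjusted p of 0.0346 and an adjusted p of 0.606 in edgeR. All 3 YBX3 KD libraries at 1 day were above both control KD libraries, but so were those of 10.5% of all genes tested at that day, where each group is small. An unadjusted p under 0.05 in edgeR was found for 1312 of the 16848 genes at 1 day. Without YBX3 KD replicate D at 1 day the log2 fold change at 1 day was 0.41 (SE 0.30, adjusted p = 0.987).

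Gchfr (ENSMUSG00000046814, chr2:118998240-119002871, plus strand), the regulator of that enzyme, was the highest of the members per length of transcript. Control KD libraries had 41.6, 45.5, 48.1 and 60.7 CPM at 0 day and 35.5 and 60.9 CPM at 1 day, and YBX3 KD libraries had 42.1, 40.3, 38.4 and 52.8 CPM at 0 day and 42.6, 44.9 and 61.4 CPM at 1 day. The 4 libraries of letter D, at 52.8 to 61.4 CPM, were all above the 9 others, at 35.5 to 48.1 CPM, whatever the siRNA or the day. Letter D was above all other letters in 9.66% of all genes tested. YBX3 KD and control KD did not differ beyond the spread, with a log2 fold change of -0.09 (SE 0.15, 95% interval -0.41 to 0.23, edgeR, Benjamini-Hochberg adjusted p = 0.805), and of -0.03 without the libraries of letter D (adjusted p = 0.877). The ratio of Gchfr to Gch1 CPM, which compares the 2 transcripts of the regulated first step without regard to length, ran from 11.1 to 22.0 (median 15.5) in control KD and from 7.65 to 15.3 (median 12.7) in YBX3 KD. These ranges overlapped, and the lowest ratio came from the library with the high Gch1 value.

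Pts (ENSMUSG00000032067, chr9:50432917-50440024, minus strand), the second enzyme of the chain, had 3.31 to 6.24 CPM in the 6 control KD libraries and 3.71 to 6.48 CPM in the 7 YBX3 KD libraries. The medians were 4.89 and 4.94 CPM, and the groups overlapped almost throughout. The log2 fold change over both days was 0.08 (SE 0.17, 95% interval -0.30 to 0.45, edgeR, Benjamini-Hochberg adjusted p = 0.870). Counts of 163 to 371 a library lay behind these values. About 3.30% of the 31-base words in its canonical transcript also occur in other genes, so a small part of its reads could have been divided.

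Spr (ENSMUSG00000033735, chr6:85107158-85114928, minus strand), the last enzyme of synthesis, lay within a narrow range in all libraries. Control KD libraries had 32.3, 39.6, 40.1 and 34.1 CPM at 0 day and 35.9 and 37.3 CPM at 1 day. YBX3 KD libraries had 33.9, 37.2, 31.9 and 35.1 CPM at 0 day and 38.7, 31.8 and 30.2 CPM at 1 day. The 3 lowest values were all YBX3 KD libraries, and the rest interleaved. The log2 fold change of -0.10 (SE 0.08, 95% interval -0.26 to 0.07, edgeR, Benjamini-Hochberg adjusted p = 0.593) holds the difference of Spr to well under that of Qdpr. Of the 31-base words of the canonical Spr transcript, 11.5% are shared with other genes, and the processed pseudogene Spr-ps1 had at most 2 counts in any library.

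Pcbd2 (ENSMUSG00000021496, chr13:55874869-55927157, plus strand) was the only dehydratase gene with counts. At 0 day control KD libraries had 5.0, 4.76, 4.59 and 6.98 CPM and YBX3 KD libraries had 4.68, 4.15, 4.62 and 5.76 CPM. At 1 day the 2 control KD libraries had 4.44 and 5.30 CPM, and the 3 YBX3 KD libraries had 6.95, 6.10 and 7.01 CPM. The 1 day YBX3 KD libraries were thus above both control KD libraries of that day, as were those of 10.5% of all genes tested. They were also above all 4 YBX3 KD libraries of 0 day, while control KD replicate D at 0 day reached the same height. Over both days the log2 fold change was 0.07 (SE 0.15, edgeR, Benjamini-Hochberg adjusted p = 0.851). At 1 day it was 0.46 (SE 0.21, unadjusted p = 0.0499, adjusted p = 0.642 in edgeR). In that comparison 1312 of the 16848 genes had an unadjusted p under 0.05, and 0.0712% were under an adjusted p-value of 0.05. The change from 0 day to 1 day within YBX3 KD was 0.48 (SE 0.17, 95% interval 0.10 to 0.85), with an unadjusted p of 0.0168 and an adjusted p of 0.988 in edgeR, and groups that did not overlap in this direction were found for 3.34% of all genes. Of the 31-base words of its canonical transcript 7.76% occur in other genes.

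When the replicate letter was entered as a block, the 1 day values of Pcbd2 and Gch1 came closer to the threshold. In edgeR the block left 12 genes under an adjusted 0.05 at 1 day, as many as without it. DESeq2, run on 30314 genes without the filter on low counts, put 123 genes there without the block and 2351 with it. The blocked log2 fold change of Pcbd2 was 0.52 (SE 0.15) with an adjusted p of 0.0928 in edgeR, and DESeq2 with the same block gave 0.0378. For Gch1 it was 0.93 (SE 0.32) with an adjusted p of 0.113 in edgeR and of 0.0388 in DESeq2. Over all alternatives tried, the adjusted p at 1 day ran from 0.0378 to 0.977 for Pcbd2 and from 0.0388 to 0.977 for Gch1, single libraries left out aside. With the block but without YBX3 KD replicate D at 1 day, an alternative chosen after seeing the data, the adjusted p was 0.266 for Pcbd2 and 0.416 for Gch1 in edgeR. The difference between the 1 day and 0 day effects was 0.61 (SE 0.26, unadjusted p = 0.0404) for Pcbd2 and 1.07 (SE 0.49, unadjusted p = 0.0525) for Gch1, each with an adjusted p of 1.00 in edgeR.

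Pcbd1 (ENSMUSG00000020098, chr10:60925107-60930103, plus strand) is listed at 0 in all 13 libraries. With 3 counts as the limit that an observed 0 allows, its level could have been up to 0.0417 to 0.0926 CPM depending on the library, a limit that covers counting error only. None of the 31-base words of its canonical transcript occurs in another gene of the annotation used here. The annotation release with which the authors counted was another one, and the table does not tell a gene without reads from one without a usable transcript model. Dnajc12, a co-chaperone of the hydroxylases that use BH4, averaged at most 0.0119 CPM in either siRNA group.

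**Figure D2:**
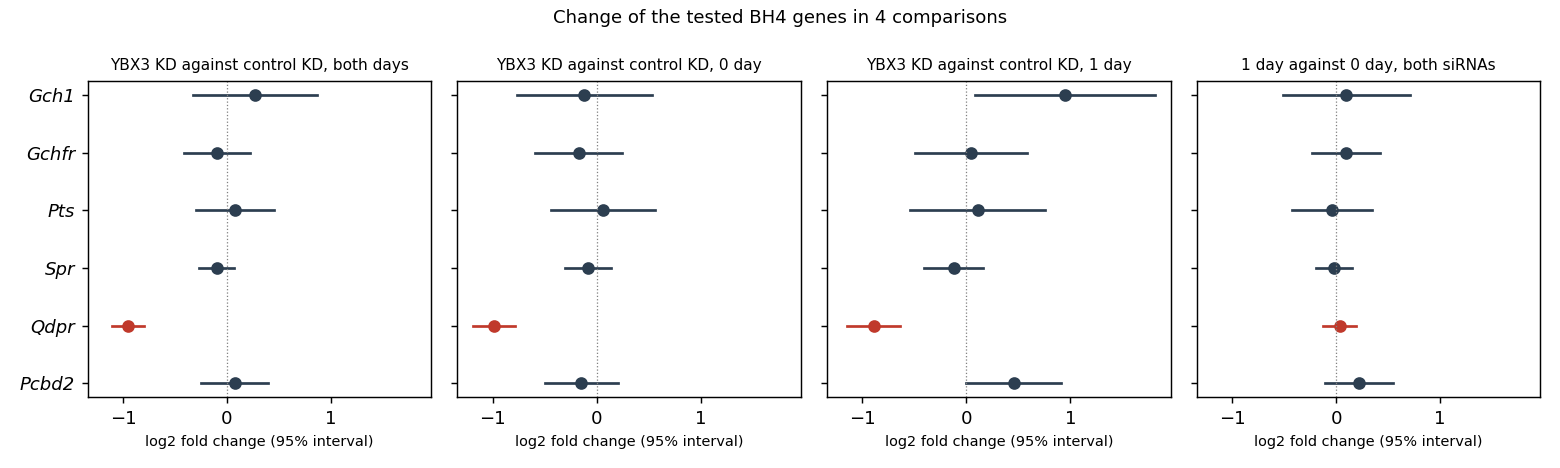
Fitted log2 fold changes (points) with 95% intervals (lines) of the 6 BH4 genes tested, for YBX3 KD against control KD over both days, at 0 day and at 1 day, and for 1 day against 0 day over both siRNAs. Qdpr, in red, lies at -0.95, -0.99 and -0.89 in the first 3 panels and at 0.04 in the last, and apart from Gch1 and Pcbd2 at 1 day the intervals of the other genes take in 0.

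The second question of the design was whether the first day in differentiation medium moved these genes. None of the 6 passed the test. In control KD, with 2 libraries at 1 day, the 7 tested markers of differentiating muscle had log2 fold changes of -1.38 to 0.066 (median -0.72). The 5 proliferation markers had 0.087 to 0.20. In YBX3 KD these lists had -0.45 to 2.06 (median 0.22) and -0.30 to -0.15. No gene of either list had an edgeR adjusted p under 0.05. The day step thus describes 1 day in the medium, and the differentiation markers of control KD did not rise with it as a set. For 1 day against 0 day over both siRNAs, the log2 fold changes ran from -0.04 in Pts to 0.22 in Pcbd2, and Qdpr stood at 0.04 (SE 0.07, 95% interval -0.12 to 0.19, edgeR, Benjamini-Hochberg adjusted p = 1.00). No member had an unadjusted p under 0.05 in this comparison, and all groups overlapped, where 0.0594% of all genes had groups that did not. The comparison called 0 of the 16848 genes at an adjusted p-value under 0.05 in edgeR (0%), with 477 at an unadjusted p under 0.05. DESeq2, run on 30314 genes without the filter, called 2. Other settings put more genes under an adjusted 0.05 here, 31 with DESeq2 and the letter block, 33 with limma-voom and 161 in edgeR without letter D, and no member was among them. In control KD alone the edgeR count was 0 (0%) with 242 at an unadjusted p under 0.05 and 4 in DESeq2, and Qdpr changed by -0.02 (SE 0.11). In YBX3 KD alone it was 0 (0%) with 721 at an unadjusted p under 0.05 and 2 in DESeq2, and Qdpr changed by 0.08 (SE 0.10). The difference between the 1 day and 0 day effects of YBX3 KD passed for 0 genes (0%) in edgeR, with 444 at an unadjusted p under 0.05, and for 1 in DESeq2. At 0 day alone, 0.427% of genes were under an adjusted 0.05 for YBX3 KD against control KD, and none of the 5 other members was among these 72 genes or among the 399 found with the letter block.

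**Figure D3:**
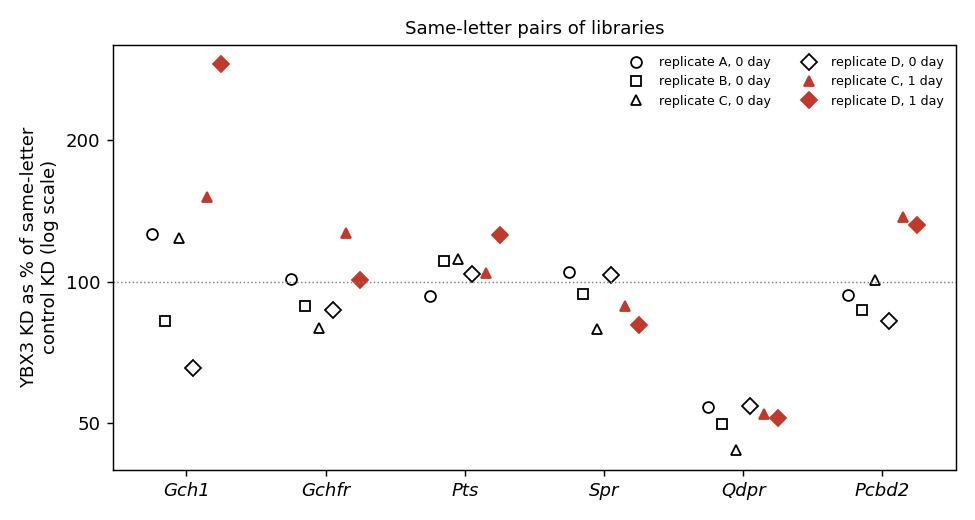
Each YBX3 KD library as a percentage of the control KD library with the same letter and day (vertical axis, log scale), for the 6 genes with counts. Open black symbols are 0 day and filled red symbols 1 day, and shapes give the letter. All 6 Qdpr pairs lie between 43.8% and 54.5%, while the pairs of the other genes lie around 100%, with Gch1 reaching 290% in the replicate D pair of 1 day.

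Ranked by CPM per kilobase, Gchfr came first, Spr and Qdpr next, and Pts, Pcbd2 and Gch1 last. With the length of the canonical transcript, Gchfr had 73.9 ± 15.6 CPM per kb in control KD (SD, n = 6), Spr 25.9 ± 2.18 and Qdpr 23.6 ± 1.60. Pts followed at 3.52 ± 0.733, Pcbd2 at 1.57 ± 0.282 and Gch1 at 1.18 ± 0.403 CPM per kb. Spr and Qdpr, with ranges of 22.9 to 28.5 and 22.1 to 26.3, overlapped, as did Pcbd2 and Gch1. Pts, at 2.43 to 4.57, lay above the ranges of Pcbd2 and Gch1. In YBX3 KD, Qdpr had 12.2 ± 0.983 CPM per kb (SD, n = 7) and no longer overlapped with Spr at 24.2 ± 2.19. The scale depends on the transcript model, and the canonical length was not among the planned ones. With all annotated exons merged, which for Qdpr come to 6919 bases against 1380 in the canonical transcript, Qdpr had 4.70 ± 0.318 CPM per kb in control KD and lay below the range of Spr, Pcbd2 stood above Pts, and Gchfr was still first at 64.0 ± 13.5.

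Within the groups, and among the members only, Qdpr moved with Spr rather than with the others. After removal of the 4 group means from log2 CPM, Pearson's r between Qdpr and Spr was 0.82 over the 13 libraries and Spearman's rho was 0.82. Gch1, Gchfr, Pts and Pcbd2 had r values of 0.49 to 0.72 with each other, and their r with Spr ran from -0.37 to -0.13. Genes outside the pathway had a higher r with Qdpr on the same scale, up to 0.949 in Atp5mf among 16847 compared. The share of genes that reach the r of Spr was not computed. These points share their libraries, among them the 4 of letter D, and the values are descriptions.

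The transcripts whose pattern over all 13 libraries was most like that of Qdpr were Ift57 (r = 0.984), Aph1b (0.974), Ybx3 (0.972), Dcun1d4 (0.969) and Purb (0.966), of 16847 compared. Their log2 fold changes in YBX3 KD were -0.64, -1.24, -2.81, -0.89 and -0.73. A likeness over all libraries follows the siRNA difference by which Qdpr was chosen, so that genes lower in YBX3 KD head this list by construction. As a description only, all but Ybx3 hold the siRNA 08 seed site in their canonical 3′ UTR, and Ift57 and Purb also hold the siRNA 06 site. With group means removed, the closest were Atp5mf (r = 0.949), Atp5me (0.942), Arl6ip4 (0.923), Gm7658 (0.920) and Tmem14c (0.912), and of these 5 only Atp5mf holds the siRNA 08 site. For the other members, over all 13 libraries, the 3 closest were Lmcd1, P2rx4 and Creg1 for Gch1 (r = 0.931 to 0.942), Flot2, Gnas and Trim8 for Gchfr (0.970 to 0.979), Pard6a, Zfp120 and Gm13270 for Pts (0.919 to 0.929), Gm15599, Znhit2 and Gemin7 for Spr (0.909 to 0.937) and H2-K2, Tmem106c and B230219D22Rik for Pcbd2 (0.892 to 0.895).

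The siRNA 08 site of Qdpr is not rare. It occurs in 884 of the 12936 canonical 3′ UTRs of tested genes, or 6.83%. Among genes with the site, 6.33% were lower in YBX3 KD at an edgeR adjusted p-value under 0.05 and 1.36% were higher, and the median log2 fold change was -0.06. Among genes without it, 0.921% were lower and 1.49% higher, with a median of 0.00107. Of the 18 genes called lower at the study's thresholds, 13 hold the site, and it is in 12 of the 16 that remain without Ybx3 and Qdpr. For the siRNA 06 site, which Qdpr lacks, 4.10% of holders and 1.15% of the rest were lower, and 1.58% and 1.47% were higher. For the nontargeting siRNA 3 site, which Qdpr holds, 1.57% and 1.17% were lower, and 2.04% and 1.24% were higher. Nontargeting siRNAs were given to the control KD cells, so the higher share is the side that faces them. The part of the seed match in the fall of Qdpr was not tested.

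**Figure D4:**
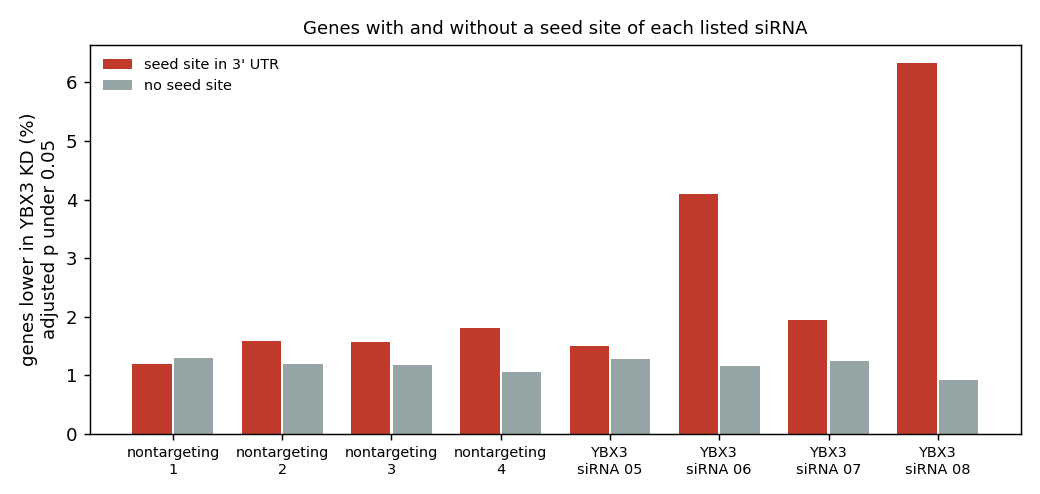
Share of tested genes lower in YBX3 KD over both days at an adjusted p-value under 0.05 (vertical axis, percent, from 0), for genes with (red) and without (grey) the seed site of each of the 8 listed siRNAs in the canonical 3′ UTR. The share is 6.33% with the siRNA 08 site, which Qdpr holds, against 0.921% without it, and 4.10% against 1.15% for siRNA 06.

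The genes that use BH4 were few and low in these cells. Of 8 BH4-dependent enzymes, 5 were tested, and none passed an adjusted p-value under 0.05 over both days in edgeR. Th, the tyrosine hydroxylase, had no count in any library, and the tested enzymes averaged about 1 CPM or less under either siRNA. Single libraries reached 1.36 CPM for Nos1, and Tph2 ran from 0.179 to 1.71 CPM between libraries. Nos1, the neuronal nitric oxide synthase that muscle also makes, averaged 0.737 CPM under control siRNA and 1.05 CPM under YBX3 siRNA (log2 fold change 0.50, SE 0.26, adjusted p = 0.395). Nos3, the endothelial form, averaged 0.621 and 0.428 CPM (log2 fold change -0.56, SE 0.28, adjusted p = 0.360). Tph2, a tryptophan hydroxylase, averaged 0.957 and 1.08 CPM, and Tph1 and Agmo reached at most 0.291 and 0.556 CPM in any library.

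Enzymes that can stand in for Spr were better expressed. The carbonyl reductases Cbr1 and Cbr3 and the aldose reductase Akr1b1 had log2 fold changes of -0.18, -0.21 and -0.14, against a median of 0.000803 over all genes tested. None of the 3 passed an adjusted 0.05 over both days, with adjusted p-values of 0.355, 0.512 and 0.143 (edgeR, Benjamini-Hochberg).

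The routes that feed and border the pathway showed the same absence of calls. All 12 genes of GTP supply were tested and none passed, with a median log2 fold change of -0.11. Paics, which catalyses 2 steps of purine synthesis, came closest at -0.27 (SE 0.07, adjusted p = 0.0590), and Impdh1, an isoform of the enzyme that commits inosinate to guanine nucleotides, lay on the other side at 0.23 (SE 0.07, adjusted p = 0.140). Of 20 genes of the folate cycle 18 were tested and none passed, with a range of -0.55 in Shmt1 to 0.25 in Mthfs. The genes singled out in this paragraph were picked after their values were seen.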

How the data were processed

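RNA-seq libraries of C2C12 cells were grouped by siRNA and day as the labels give them. Per the study's methods, reads were assigned with Salmon on the Gencode M30 annotation of GRCm39. What the authors deposited are estimated counts for genes without normalization. The values are whole numbers, and the step that summed and rounded them is not given in the sources used here. Stranded libraries were made, and whether strand was used in counting is not given either.

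Low counts were filtered by filterByExpr over the 4 groups, and TMM factors were computed. Main tests were edgeR's quasi-likelihood tests (glmQLFit and glmQLFTest) with Benjamini-Hochberg adjustment over the 16848 genes tested, with edgeR 4.0.16 under R 4.3.3. The other tools were DESeq2 1.42.0 and limma 3.58.1. The comparison over both days had the day as a term, and the others were contrasts of the 4 group means. DESeq2, limma-voom, other normalizations and filters, blocks, and libraries left out in turn were alternatives. DESeq2 was run without the filter on low counts, on 30314 genes, so its counts of genes differ from those of edgeR in tool and in filter. The scripts were tested on simulated data with 200 genes changed. At a log2 change of 0.5, an edgeR adjusted p under 0.05 found 14.5% of them over both days and 7.5% for the day step. It found 0% for YBX3 KD at 1 day and 0% for the difference between the 1 day and 0 day effects. At a log2 change of 1 these shares were 55.5%, 57%, 21% and 5%. Changes of such sizes can thus go without a call. Library totals of 33451547 to 71811371 counts set the precision, and intervals are 95%. Positions are those of GENCODE vM39, which matched 54969 of the 55642 identifiers by Ensembl number. siRNA strands were those the study lists.

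Members and lists were chosen with earlier results of these data known. The text names every member, Ybx3, the genes of the other lists that are described, and for each tested member the genes whose log2 CPM correlates best with it.

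To see whether replicate letters pair the libraries, deviations from the group means were correlated between groups. All 16 same-letter pairs exceeded 0.1 (0.117 to 0.730), against 11 of 46 other pairs and 8 of 16 pairs with the same number in the title. The letters were therefore taken to pair the libraries in the same-letter percentages and in the block by letter. The main tests left this pairing out, because the study's methods state no block. Their SEs, intervals and p-values thus do not take it into account, and the block is given only as an alternative. No 2 libraries of a group agreed within sampling noise (chi-square per degree of freedom 19.0 to 276).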

Additional observations from a re-analysis of the deposited data

Results flagged for a closer look

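In control KD at 0 day, Pcbd2 in replicate D had 6.98 CPM against 4.59 to 5.0 CPM in the other 3 libraries, and its gap to the nearest of them was 0.831 of the group's whole range, just above Dixon's critical value for 4 samples. Chance flags about 1 in 20 groups of this size. The rule was applied to all 6 tested members in both 0 day groups, so the rate of a flag over the whole set is higher. No other value was flagged. Without that library the Pcbd2 log2 fold change was 0.19 over both days and -0.0019 at 0 day, against 0.07 and -0.15 with it.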

How the results depend on the processing

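No member passed the study's thresholds in any comparison under any alternative, the Qdpr fall aside, which was not tested. Its log2 fold change over both days was -0.99 to -0.94 under the 11 alternatives other than single libraries left out. In the main test 19 genes were called over both days, against 185 with DESeq2 or limma-voom. DESeq2 with the letter as a block called 428. The count was 23 with the letter as a replicate block in edgeR, 9 with the title number as a block and 102 without letter D. At an adjusted p-value under 0.05 these settings gave 394, 1115, 3088, 2930, 1647, 364 and 2155, and 180 came from edgeR without the filter. The counts do not share a denominator. DESeq2, with or without the block, and edgeR without the filter covered 30314 genes, edgeR without letter D 17271, and the others 16848. DESeq2 with the letter as a block gave 25 for 1 day against 0 day in control KD, 37 in YBX3 KD and 47 for the difference between the 1 day and 0 day effects, and edgeR without letter D gave 4, 40 and 2, against 0 of each. The block changed no call of a member other than those of Pcbd2 and Gch1 at 1 day in DESeq2. Leaving out 1 library in turn gave 10 to 21 called genes, and control KD replicate A at 0 day was among those that gave 10.

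Values near 0 changed sign, and the cause was not tested. For 1 day against 0 day over both siRNAs, Gch1 had -0.049 with the letter as a replicate block in edgeR, -0.050 in DESeq2 with it, -0.12 with limma-voom and -0.16 without letter D. Gchfr had -0.055 with limma-voom and -0.058 without letter D, and Pts had 0.10 with the title number as a block. Qdpr in control KD, 1 day against 0 day, had 0.035 in edgeR and 0.034 in DESeq2 with the letter as a block. Gch1 at 0 day, YBX3 KD against control KD, had 0.12 with limma-voom and 0.090 without letter D. With single libraries left out, the values over both days ran from -0.031 to 0.19 for Pcbd2 and from -0.0085 to 0.16 for Pts, and Gch1 at 0 day ran from -0.25 to 0.095. For 1 day against 0 day over both siRNAs they ran from -0.26 to 0.27 for Gch1, -0.0075 to 0.23 for Gchfr, -0.15 to 0.034 for Pts and -0.076 to 0.016 for Spr, and the step ran from -0.073 to 0.028 for Qdpr in control KD and from -0.0053 to 0.77 for Gch1 in YBX3 KD. YBX3 KD replicate D at 1 day moved Gch1 most: without it the log2 fold change over both days was 0.06. Where a group was left with 1 library, that library was assumed to vary like the other groups.

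Levels per kilobase changed with the transcript model. In control KD, the longest annotated transcript gave Qdpr 7.40 and Spr 10.3 CPM per kb. At 1 day the 2 control KD libraries limit every comparison, and Gch1 and Pts rest on 106 to 371 counts a library.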
